A study of Mus musculus with 2 samples.

Results

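The striated muscle miRNA genes of the embryonic mouse face were examined. The list was fixed by symbol, by a rule without a threshold on measured values, though with earlier results of these data known: Mir206 and Mir133b of skeletal muscle, Mir208a, Mir208b and Mir499 of the heart and slow muscle, Mir1a-1, Mir1a-2, Mir133a-1 and Mir133a-2 of both muscles, and Mir1b. Of these 10 genes 9 have a row among the 1973 miRNA genes counted, and Mir1a-2 has none. Small RNA libraries of the facial prominences, the tissue buds that form the face and jaws, came from mouse embryos of strain B6NCrl at embryonic day 14.5, without treatment or genetic change named in the labels. The study holds 2 biological replicates, collected on different days, and makes no contrast between conditions. The labels name 1 pup per sample and also a sex pooled from male and female, which leaves unclear whether a replicate is 1 embryo, and p-values measure only the difference between these 2 libraries.

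A miRNA is cut from a hairpin, loaded into an Argonaute protein and guided to messenger RNAs mainly by its seed, the bases near its 5′ end. Skeletal muscle precursors switch on Mir206 and Mir133b, and the Mir1a and Mir133a genes are active in skeletal and cardiac fibres, where miR-1 and miR-206 favour differentiation and miR-133 is tied to precursor growth. Mir208a, Mir208b and Mir499 lie in genes of myosin heavy chains, the motor proteins of the contractile apparatus, and are known for links to the choice between slow and fast myosins. The muscles of the face form from cranial mesoderm that migrates into the facial buds.

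The mature sequences show, for the members with an entry, which are alike and which could be told apart by their reads. They were taken from RefSeq on assembly GRCm38.p6, where a mature entry was used for 6 of the members. The capitals mark the seed, bases 2 to 8. No entry was used for Mir1a-2, Mir1b, Mir133a-1, Mir133a-2 or the 3p arm of Mir1a-1. The likeness of those products to the ones printed is therefore not shown. The products of the skeletal locus on chromosome 1 come first, from 20679055 to 20679076 for miR-206-3p and from 20682834 to 20682855 for miR-133b-3p, both on the plus strand.
miR-206-3p: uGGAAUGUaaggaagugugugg
miR-133b-3p: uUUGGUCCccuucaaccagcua

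The products of the 3 myosin introns follow, because they form a group by sequence. miR-208a-3p lies on chromosome 14 from 54949072 to 54949093 and miR-208b-3p from 54975710 to 54975731, both on the minus strand, and miR-499-5p on chromosome 2 from 155622893 to 155622913, plus strand.
miR-208a-3p: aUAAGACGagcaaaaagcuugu
miR-208b-3p: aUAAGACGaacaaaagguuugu
miR-499-5p: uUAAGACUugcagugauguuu

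Positions in substitutions are counted from 1 at the 5′ end, with the base of the first named miRNA first. miR-208a-3p and miR-208b-3p share a seed and match at 19 of 22 bases, with G10A, A16G and C18U. From miR-208b-3p to miR-499-5p the seed changes by G8U, its last base, and the first 21 bases match at 10. The other arms of Mir206 and Mir1a-1 are also close, as the lines below show.
miR-206-5p: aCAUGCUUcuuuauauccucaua
miR-1a-1-5p: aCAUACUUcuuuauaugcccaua

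These 5′ arms match at 20 of 23 bases, with G5A in the seed and C17G and U19C behind it. A search of the GENCODE M21 hairpins, 2201 other miRNA genes on both strands, gave the longest identical stretch each member shares with another gene. Mir206 shares at most 13 bases, with Mir1a-1 and Mir1a-2. Mir208a and Mir208b share 14 bases with each other, and Mir499 shares 13 with Gm24462, in both cases with the opposite strand of the partner. Mir133b shares 21 bases with each of Mir133a-1 and Mir133a-2, and the 2 Mir133a genes share 31 with each other. Mir1a-1 shares 28 bases with Mir1a-2 and 28 with Mir1b, in the second case with the opposite strand of Mir1b. Mir1a-2 and Mir1b overlap on opposite strands of the same site over all 72 bases of Mir1a-2, so their letters are complementary there. The 5 members with a row that share 20 or more bases with another gene can lose reads of several equal positions, which are not in the gene counts, and 29.8% and 28.5% of all reads of replicate 1 and replicate 2 had several positions.

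The gene-strand miRNA counts summed to 2719153 in replicate 1 and 6602050 in replicate 2, and levels are given as CPM, counts divided by that total and scaled alike in each library. A count of 0 allows up to 3 counts, 1.10 CPM in replicate 1 and 0.454 CPM in replicate 2. Marker lists, chosen with earlier results of these data known, were summed without a set threshold. Their summed CPM describes the labelled tissue and does not test the label. Surface epithelium ranged from 52450 to 67435, cartilage from 41703 to 43454 and endothelial Mir126a from 41674 to 54165. Smooth muscle ranged from 16278 to 18130, facial mesenchyme from 12119 to 17643 and red cells from 1072 to 1386. Neuronal markers were at 0 counts in 4 of 5 genes with a row, and their sum was 2.57 and 5.60 CPM. The genes at 0 were Mir124a-1, Mir124a-2, Mir124a-3 and Mir9-2. Reads with several equal positions are not in the gene counts, and shared stretches were searched for the members only. These low values therefore do not show that neuronal miRNAs were absent.

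Mir206 held most of the uniquely placed striated muscle counts, and the cardiac genes were present far below it. The 9 members summed to 12185 CPM in replicate 1 and 13734 CPM in replicate 2. This sum leaves out Mir1a-2, which has no row, and any reads of the Mir1a, Mir1b and Mir133 genes with several equal positions. The shares below hold for the counted reads only, and the size of that loss was not tested. The skeletal share of this sum was 96.1% in replicate 1, with a 95% Wilson interval from 95.9 to 96.3, and 97.2% in replicate 2, from 97.1 to 97.3. The cardiac share was 3.85% (3.65 to 4.06) and 2.77% (2.67 to 2.88). In such bulk tissue, fewer cells of a type and less RNA per cell cannot be told apart. Intervals here cover counting error only, and no molecular identifiers are described.

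Mir206, the skeletal muscle miRNA that favours the differentiation of precursors, had 31127 counts or 11447 CPM in replicate 1 and 86447 counts or 13094 CPM in replicate 2. Its mean was 12271 ± 1164 CPM (SD, n = 2), rank 21 of all genes. It lies on mm10 chromosome 1 from 20679010 to 20679082, plus strand, in an exon of the long noncoding gene Gm28653 (ENSMUSG00000065559.1). Next above it in mean CPM were Mir214 (13601 ± 3584) and Mir17 (12715 ± 3450), and next below Mir127 (11771 ± 1145) and Mir429 (11362 ± 755). The ranges of these 4 genes over the replicates overlapped that of Mir206, so its place among them does not exceed the spread.

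Mir133b, the partner of Mir206 in the same noncoding gene, stood far lower. It had 721 counts or 265 CPM in replicate 1 and 1680 counts or 254 CPM in replicate 2, a mean of 260 ± 7.56 CPM (SD, n = 2) and rank 158. It lies on chromosome 1 from 20682769 to 20682887, plus strand, also in an exon of Gm28653, with 3686 bases between it and Mir206 (ENSMUSG00000065480.1). Within a library Mir206 had 43.2 times the counts of Mir133b in replicate 1 and 51.5 times in replicate 2. Mir133b has the 21-base overlap with the Mir133a genes and Mir206 has none of that length, and the part of lost reads in this ratio was not tested. Levels of different miRNAs also carry the bias of adapter ligation, which these files cannot measure.

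**Figure D1:**
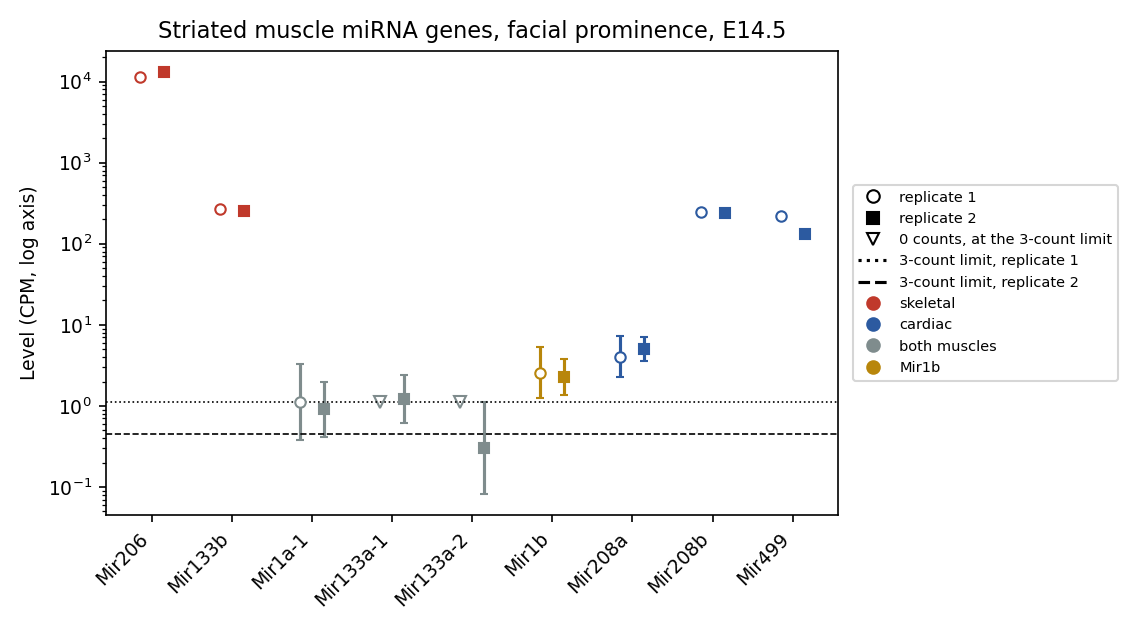
Level of each member in CPM (vertical log axis) in replicate 1 (open circles) and replicate 2 (filled squares), with 95% Wilson intervals of the counts as bars; open triangles stand at the 3-count limit for genes with 0 counts, and the dotted and dashed lines mark that limit in each replicate. Mir206 stands at 11447 and 13094 CPM, Mir133b, Mir208b and Mir499 between 134 and 265 CPM, and the other members at or below 5.00 CPM.

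Among the cardiac members, Mir208b and Mir499 had many more counts than Mir208a in each replicate. Mir208b, in an intron of Myh7, the gene of slow and embryonic cardiac beta myosin, had 670 counts or 246 CPM in replicate 1 and 1597 counts or 242 CPM in replicate 2. Its mean was 244 ± 3.19 CPM (SD, n = 2), rank 161. It lies on chromosome 14 from 54975700 to 54975776, minus strand (ENSMUSG00000077928.1). The replicates of Mir208b lay close together and below both replicates of Mir133b.

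Mir499, in an intron of the slow myosin gene Myh7b, had 595 counts or 219 CPM in replicate 1 and 882 counts or 134 CPM in replicate 2. Its mean was 176 ± 60.3 CPM (SD, n = 2), rank 180, and replicate 2 was the lower. It lies on chromosome 2 from 155622880 to 155622958, plus strand (ENSMUSG00000076312.1).

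Mir208a, in an intron of Myh6, the alpha myosin gene of the working heart, had 11 counts or 4.05 CPM in replicate 1 and 33 counts or 5.00 CPM in replicate 2. Its mean was 4.52 ± 0.67 CPM (SD, n = 2), rank 329. The 95% Wilson intervals, 2.26 to 7.24 CPM and 3.56 to 7.02 CPM, overlapped and lay above the limit of a count of 0 in the same replicate. It lies on chromosome 14 from 54949060 to 54949142, minus strand, with 26557 bases between it and Mir208b (ENSMUSG00000065432.1). Of the cardiac counts Mir208a made up 0.862% in replicate 1 and 1.31% in replicate 2, Mir208b 52.5% and 63.6%, and Mir499 46.6% and 35.1%. Mir208a and Mir208b share no stretch of 20 bases with each other or with another miRNA gene.

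The genes of both muscles were at or near 0. Mir1a-1 had 3 counts (1.10 CPM) in replicate 1 and 6 counts (0.909 CPM) in replicate 2. It lies on chromosome 2 from 180389048 to 180389124, plus strand, outside any other annotated gene (ENSMUSG00000070144.1). Mir133a-2, on chromosome 2 from 180398379 to 180398482, plus strand, had 0 and 2 counts, and 9254 bases separate it from Mir1a-1 (ENSMUSG00000065460.1). Mir133a-1, on chromosome 18 from 10782909 to 10782976, minus strand, in introns of Mib1 on the other strand and of Mir133a-1hg, had 0 and 8 counts (ENSMUSG00000065399.1). At these counts no difference between replicates was detectable.

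Mir1b, on chromosome 18 from 10785446 to 10785567, plus strand, had 7 counts (2.57 CPM) in replicate 1 and 15 counts (2.27 CPM) in replicate 2 (ENSMUSG00000080662.1). This site is in introns of Mib1 on the same strand and of Mir133a-1hg on the other. The span of Mir1b covers Mir1a-2, which runs from 10785481 to 10785552 on the minus strand and has no row. Mir1b, Mir1a-1, Mir133a-1 and Mir133a-2 all share 20 or more bases with another gene, and their low values count uniquely placed reads only.

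In order of mean CPM the members were Mir206, Mir133b, Mir208b, Mir499, Mir208a, Mir1b, Mir1a-1, Mir133a-1 and Mir133a-2. Mir206 stood apart from Mir133b in each replicate. Mir133b and Mir208b were neighbours whose counts differed little: the ratio was 1.08 in replicate 1 and 1.05 in replicate 2, with a mean log2 ratio of 0.09 ± 0.02 (SD, n = 2) and a counting SE of 0.08 and 0.05. Mir208b was above Mir499 by a mean log2 ratio of 0.51 ± 0.48 (SD, n = 2), and their CPM ranges did not overlap. Their Wilson intervals overlapped in replicate 1, at 228 to 266 CPM for Mir208b and 202 to 237 CPM for Mir499. In replicate 2 they did not, at 230 to 254 CPM and 125 to 143 CPM. Mir499 stood above Mir208a in each replicate, by intervals that did not overlap. From Mir208a down the Wilson intervals of neighbours overlapped in each replicate.

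**Figure D2:**
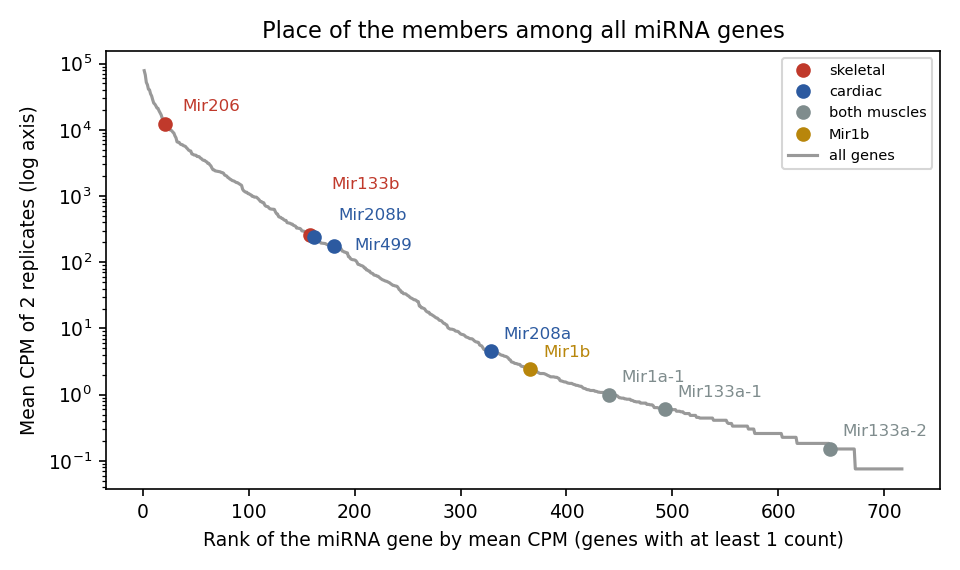
Mean CPM of the 2 replicates (vertical log axis) against rank (horizontal axis) for the 717 miRNA genes with at least 1 count, drawn as a grey line, with the members as coloured points. Mir206 is at rank 21, Mir133b, Mir208b and Mir499 lie between ranks 158 and 180, and the other members lie at rank 329 or beyond.

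The question of skeletal against cardiac members was put within each library, where the ratio does not depend on scaling. Skeletal members summed to 11712 CPM in replicate 1 and 13348 CPM in replicate 2, a mean of 12530 ± 1157 CPM (SD, n = 2). Cardiac members summed to 469 CPM and 380 CPM, a mean of 425 ± 62.8 CPM. The skeletal sum was 24.96 times the cardiac sum in replicate 1 and 35.1 times in replicate 2, a mean log2 ratio of 4.89 ± 0.35 (SD, n = 2). Skeletal was above cardiac in 2 of 2 libraries, and no test is given because the smallest exact two-sided p with 2 libraries is 0.5. The members called cardiac are genes of the heart and of slow muscle, so their sum does not stand for heart muscle alone. Which muscle their counts came from was not tested.

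This order rests on Mir206. With Mir133b as the only skeletal gene, an alternative chosen after the values were seen, the mean log2 ratio over the cardiac sum was -0.70. With Mir208a as the only cardiac gene, which leaves out the more highly counted Mir208b and Mir499, it was 11.4. Mir206 over Mir208a was 2830 times in replicate 1 and 2620 times in replicate 2.

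**Figure D3:**
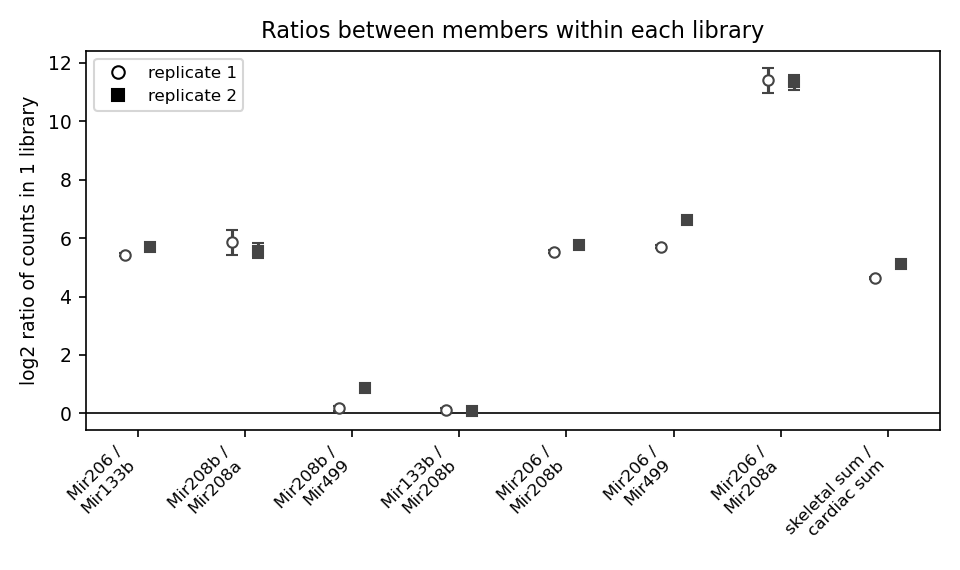
Log2 ratio of the counts of 2 members within 1 library (vertical axis) for replicate 1 (open circles) and replicate 2 (filled squares), with the counting SE as bars, and on the right the skeletal sum over the cardiac sum. Mir133b over Mir208b lies near 0 in each replicate, and Mir206 over Mir499 moves from 5.71 in replicate 1 to 6.61 in replicate 2.

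Between the libraries 2 members differed beyond counting error, in opposite directions. Mir206 was higher and Mir499 lower in replicate 2, while the other tested members did not pass the test. The test was an exact two-sided binomial test with Benjamini-Hochberg adjustment over the 372 genes with a mean of at least 10 counts, and it compares libraries, not conditions. It called 52.2% of those genes, 27.4% higher and 24.7% lower in replicate 2, so 2 of 6 tested members is not above the background. The median log2 ratio was 0.08 over the tested members and -0.02 over all tested genes. The other 3 members with a row, Mir1a-1, Mir133a-1 and Mir133a-2, had too few counts to be tested.

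Mir206 had a log2 ratio of 0.32 (counting SE 0.0095), replicate 2 over replicate 1, with an adjusted p of 5.48e-253 in the exact binomial test. Mir499 had a log2 ratio of -0.59 (counting SE 0.077) and an adjusted p of 1.80e-13 in the same exact test. Of the 372 genes 32 had a lower log2 ratio than Mir499. Mir208b was at 0.098 (exact test, adjusted p = 0.216) and Mir133b at 0.066 (exact test, adjusted p = 0.426). Both turned to the other side of 0 with total counts in place of TMM (trimmed mean of M values) scaling, at -0.027 and -0.060, because that scaling moves all log2 ratios by 0.13. Mir208b passed the test with DESeq2 size factors (0.16, exact test, adjusted p = 0.0387). Mir208a was at 0.39 (counting SE 0.49) and Mir1b at -0.11 (counting SE 0.64), so at their counts no difference was detectable. With the unstranded column, which adds reads of the Mir1a-2 strand, Mir1b was at -0.68 (exact test, adjusted p = 0.186) and its mean level at 5.55 CPM.

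**Figure D4:**
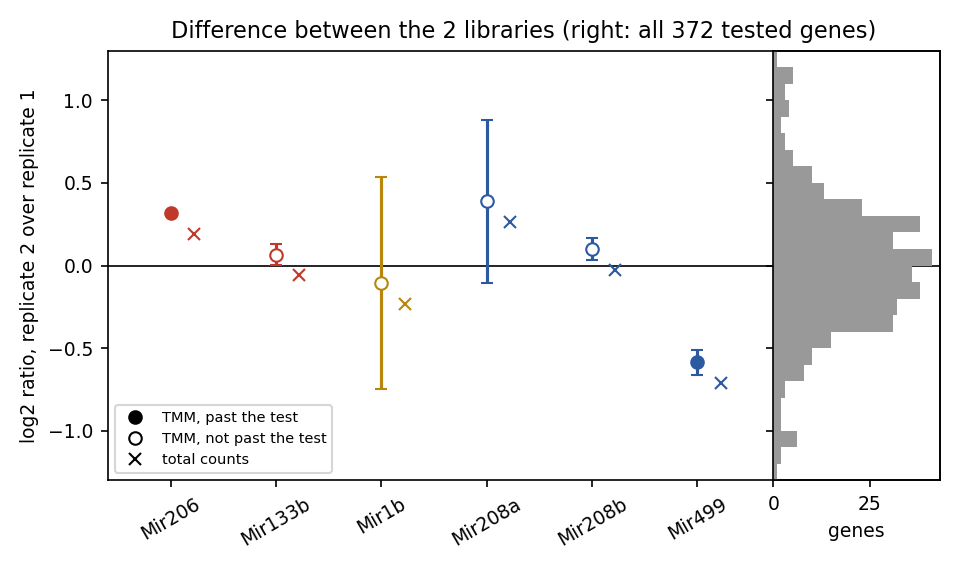
Log2 ratio of replicate 2 over replicate 1 (vertical axis) for the 6 tested members with TMM scaling (circles, filled where past the test, bars are the counting SE) and with total counts (crosses), beside a histogram of all 372 tested genes. Mir206 at 0.32 and Mir499 at -0.59 are the filled points; 7 genes beyond 1.3 on either side lie outside the axis.

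Within the libraries, where scaling has no part, the log2 ratio of Mir206 to Mir499 was higher in replicate 2 by 0.91 (95% counting interval 0.76 to 1.06). The ratio of Mir208b to Mir499, which both lie in slow myosin introns, was also higher, by 0.69 (0.49 to 0.88). In the skeletal locus the ratio of Mir206 to Mir133b was higher by 0.25 (0.13 to 0.38), although both lie in the same noncoding gene. For Mir133b over Mir208b the difference was -0.033 (-0.21 to 0.15), an interval that includes 0. These intervals hold for counting error only, and with 1 library per day of collection the day and the replicate cannot be told apart.

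Markers of other cells moved between the libraries as well, and their part in these differences was not tested. The counts below stand beside 27.4% of all tested genes called higher and 24.7% lower, and with total counts 64 higher and 133 lower of 372. With DESeq2 size factors 113 were higher and 78 lower. In replicate 2 the epithelial sum was 67435 CPM against 52450 in replicate 1, with 5 of 7 genes higher and 1 lower (4 higher and 2 lower with total counts). Of this sum Mir203 alone had 35599 against 21094 CPM. Endothelial Mir126a stood at 54165 against 41674 CPM. The mesenchymal sum was 12119 against 17643 CPM, with 2 of 4 genes lower (3 with total counts) and 0 higher. Most of it was Mir214, at 11066 against 16135 CPM, a gene that is also in the muscle-related list below. The cartilage sum was 41703 against 43454 CPM, with 1 of its 2 genes higher and 1 lower, and with total counts 0 higher and 2 lower. With DESeq2 size factors 1 cartilage gene was higher and 0 were lower. Of the smooth muscle genes Mir143 and Mir145a 1 was higher and 1 lower, and with total counts 0 were higher and 1 lower. With DESeq2 size factors 2 smooth muscle genes were higher and 0 lower. Both red cell genes were higher, and 1 of them with total counts.

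Of 30 other miRNA genes linked in the literature to muscle growth or differentiation, 27 had a row and 25 were tested. In replicate 2, 5 were higher, 7 were lower and 13 did not pass the exact binomial test, and with total counts 2 were higher and 11 lower. Over all 372 tested genes 27.4% were higher and 24.7% lower, and with total counts 64 genes were higher and 133 lower. The counts of the list are not read as a difference from this background. Their median log2 ratio was -0.044, against -0.017 over all tested genes. The highest of them were Mir322, known for promoting exit from the cell cycle in myoblasts, at 34808 ± 7081 CPM, Mir214 at 13601 ± 3584 CPM and Mir27b, known for lowering the muscle stem cell factor Pax3, at 3279 ± 394 CPM (SD, n = 2). All 3 were lower in replicate 2, with log2 ratios of -0.29, -0.42 and -0.12, the opposite side from Mir206. Among the 101 other genes averaging 1000 CPM or more, the nearest to Mir206 in log2 ratio were Mir100 (0.32), Mir484 (0.31) and Mir99a (0.31). This likeness rests on 1 ratio from 2 libraries.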

How the data were processed

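Each deposited file holds the raw counts of 1 library over miRNA genes of GENCODE M4 on mm10, per the labels and the deposited metadata, with replicates not pooled. The aligner was not given in the sources used here, nor its settings or any trimming. The files have no column names, and their layout is that of STAR gene counts: both strands, gene strand (column 3, used here) and opposite strand. The 4 summary rows, 49.4% and 48.4% of reads, entered neither library sizes nor tests. CPM was computed over gene-strand counts.

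Symbols and positions came from GENCODE M21 by gene identifier, of which 1894 of 1973 matched. Library sizes were TMM values from edgeR 4.0.16 over genes with a mean of at least 10 counts. For these genes counts were compared by exact binomial tests (scipy 1.17.1), adjusted by Benjamini-Hochberg at 0.05, with log2 ratios using a prior of 0.5 counts. The test was checked on simulated counts with counting error only, so the check does not cover other spread between libraries. Alternatives were total counts, DESeq2 1.42.0 size factors, TMM over all genes, other filters, another prior, the unstranded column, all reads as denominator, leaving out each replicate, and other groupings of the members.

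The members and lists were chosen with earlier results of these data known. Named genes are the members, 4 genes next to Mir206 in mean CPM, 3 nearest to it in log2 ratio, the 3 highest of the muscle-related list and the markers. Of that list Mir486 was found through its older symbol in RefSeq.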

Additional observations from a re-analysis of the deposited data

Results flagged for a closer look

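Opposite-strand reads at Mir1b lie outside the gene-strand measurement and were above the 3 counts that a count of 0 allows. There were 13 such counts in replicate 1 and 13 in replicate 2, beside 7 and 15 on the gene strand. This strand is that of Mir1a-2, which has no row, and no other member had more than 1 opposite-strand count in a library.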

How the results depend on the processing

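Mir206 and Mir499 kept their direction and passed the exact binomial test under all 7 alternatives of scaling, filter, column and prior, with log2 ratios from 0.19 to 0.38 and from -0.71 to -0.53. The direction of Mir133b (-0.060) and Mir208b (-0.027) reversed with total counts in place of TMM, by construction of the scaling. With total counts 64 genes were higher and 133 lower in replicate 2, against 102 and 92 with TMM. With all reads as denominator, which is larger by construction, the skeletal sum was 6128 CPM and the cardiac sum 207 CPM. The skeletal over cardiac log2 ratio was 11.4 with Mir208a alone as cardiac and -0.70 with Mir133b alone as skeletal, the latter added after the data were seen. Without replicate 1 or replicate 2 it ranged from 4.64 to 5.13, the skeletal sum from 11712 to 13348 CPM and the cardiac sum from 380 to 469 CPM. No paired analysis was possible because there is 1 group. Depth limits Mir208a. The 4 members below it are limited by depth and also by reads with several equal positions, which are not in their counts.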
